A study of Mus musculus with 4 samples.

Results

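Dividing immune cells other than Kupffer cells were picked out of 4 single-cell RNA libraries of mouse liver, and 205 of 30362 kept cells, from 44974 deposited barcodes, belonged to them. They were selected on measured values. A member carried at least 3 UMIs (unique molecular identifiers, each standing for 1 captured RNA molecule) of Mki67 and Top2a together and at least 1 UMI of Ptprc, the gene of the pan-leukocyte surface phosphatase CD45. In the same cell, the Kupffer cell genes Clec4f, Vsig4, Cd5l, Timd4, C1qa, Folr2 and Marco had to sum to under 0.3% of UMIs, and so did the endothelial genes Pecam1, Kdr, Stab2, Clec4g, Ptprb and Cdh5. A barcode counted as a kept cell when mitochondrial transcripts made up no more than 10% of its UMIs and between 500 and 6000 genes were detected in it. The paper words these limits in transcripts, and they are read here as detected genes, since the rule does so.

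The study asked how the loss of YAP and TAZ, the transcriptional coactivators at the end of the Hippo pathway, from liver epithelium changes the cells of the liver. Each library came from 1 mouse, 1 each of wildtype (WT), YAPKO, TAZKO and the double knock-out DKO, with no treatment. Floxed Yap or Taz alleles were recombined by Cre under the albumin promoter, which acts in hepatocytes and biliary epithelial cells, so the immune cells described here keep intact alleles in all 4 genotypes. Hepatocytes and non-parenchymal cells were isolated separately and then mixed, so shares of all kept cells also carry that mixing step. The age of these mice was not used here, and with 1 mouse per genotype a difference between libraries and a difference between genotypes cannot be told apart.

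Most immune cells of a healthy liver are quiescent. T cells and NK cells divide after an antigen or cytokine signal, B cells divide as precursors and again on the way to plasma cells, neutrophils divide only as granule-filling precursors, and dendritic cells are renewed from precursors that divide on their way into tissue. A dividing cell copies its DNA with S phase genes such as the sliding clamp Pcna, and later raises the G2/M genes of the spindle and the chromosomes. Mki67, which coats mitotic chromosomes, and Top2a, which untangles sister DNA, are both highest in that later phase, so the selection favours cells in G2 and mitosis over cells early in S phase.

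The libraries differ before any division is counted. The deposited matrices held a median of 1598 UMIs per barcode in WT, 6689 in YAPKO, 1723 in TAZKO and 5670.5 in DKO, a spread that the gated immune cells defined below do not share. Rps3a1, a ribosomal protein gene, was at 3572 UMIs per 1000000 UMIs (CPM) in the WT members and 3542 in the YAPKO members, but at 224 in TAZKO and 270 in DKO. Its near copy Rps3a3 was at 0 in WT and YAPKO and at 2766 in TAZKO and 2889 in DKO. The non-dividing cells split in the same way, so WT with YAPKO and TAZKO with DKO form pairs in these genes whatever the cell does, and the cause was not tested. No member barcode occurred among the members of another library, while 96 barcodes were shared between the kept cells of library pairs and 1 member barcode was found among another library's kept cells.

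Dividing immune cells were a small minority in every library. The members numbered 36 in WT, 59 in YAPKO, 64 in TAZKO and 46 in DKO. As a share of kept cells this was 0.503% in WT (exact 95% Clopper-Pearson interval 0.353 to 0.696), 0.940% in YAPKO (0.717 to 1.21), 0.741% in TAZKO (0.571 to 0.945) and 0.555% in DKO (0.406 to 0.739). These intervals, and all others given here, cover counting error only, and there are no replicates. The interval of YAPKO lies above that of WT.

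A denominator of immune cells leaves the hepatocytes out. Of the kept cells with a Ptprc UMI under the same Kupffer and endothelial limits, called gated immune cells here, 2.72% were dividing in WT (36 of 1322, interval 1.91 to 3.75), 2.76% in YAPKO (59 of 2139, 2.11 to 3.54), 3.50% in TAZKO (64 of 1829, 2.71 to 4.45) and 2.09% in DKO (46 of 2198, 1.54 to 2.78). TAZKO was highest and DKO lowest, and neighbouring values in that order overlap in their intervals. Over all libraries 205 of 7488 gated immune cells, or 2.74%, were dividing.

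The members held more UMIs than the gated immune cells as a whole, and a rule that counts UMIs depends on depth. A deeper cell reaches 3 UMIs more easily, so this gap is partly set by the selection. Median depth was 3909.5 UMIs in gated cells with 0 division UMIs, 5727.5 with 1, 8117 with 2 and 10417 with 3. The members had a median of 18008 UMIs in WT, 17622 in YAPKO, 11647 in TAZKO and 14331 in DKO, against 3632, 4561, 4054 and 3779.5 in all gated immune cells. After each cell was thinned to 2000 UMIs, with 645 shallower cells left out (130 in WT, 164 in YAPKO, 100 in TAZKO and 251 in DKO), the rule of 3 UMIs gave 1.17% in WT, 1.82% in YAPKO, 2.49% in TAZKO and 1.13% in DKO. TAZKO stayed highest at equal depth, and its thinned interval of 1.81 to 3.34 lay above that of DKO at 0.709 to 1.71.

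Cells that should not divide gave far lower shares. At equal depth at least 1 UMI of Mki67 or Top2a was found in 3.19% of gated immune cells in WT, 3.95% in YAPKO, 5.44% in TAZKO and 4.01% in DKO. In cells with at least 10% hepatocyte RNA and no Ptprc UMI, which stand for non-dividing epithelium, the same measure gave 0.161%, 0.546%, 0.220% and 0.173%, at full median depths of 3299, 9548, 3847 and 8871.5 UMIs.

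**Figure D1:**
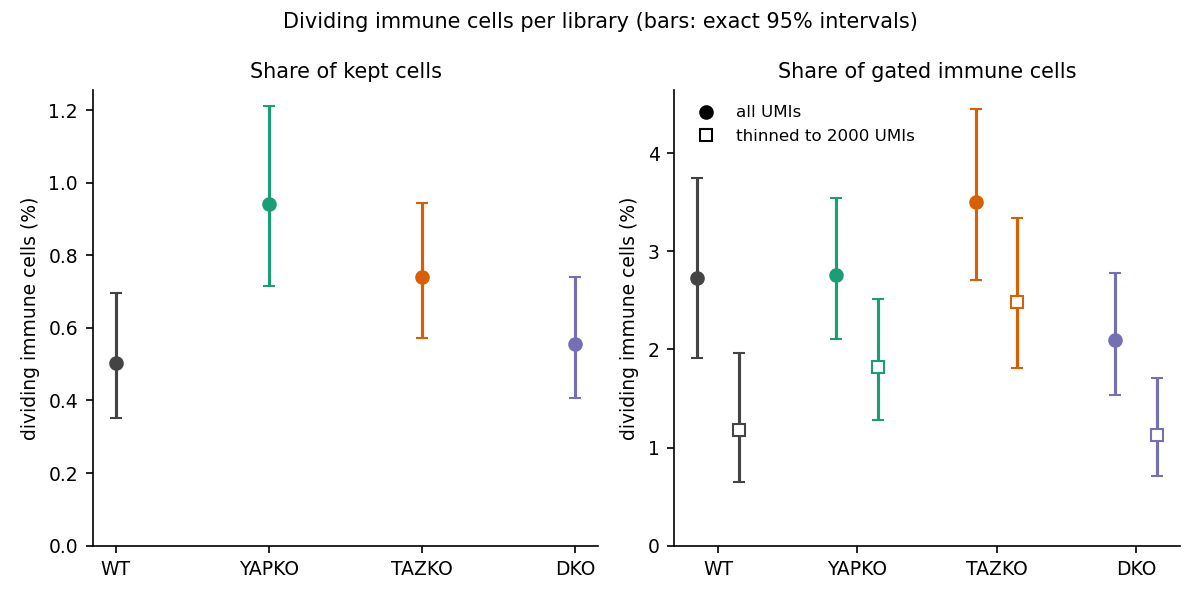
Members per library as a percentage of kept cells (left) and of gated immune cells (right), with all UMIs (filled circles) and, on the right, with each cell thinned to 2000 UMIs (open squares), and exact 95% intervals as bars. TAZKO is highest among gated immune cells, at 3.50% with all UMIs and 2.49% after thinning.

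The threshold falls in a sparse stretch between quiescent and clearly dividing cells. Among gated immune cells 6996 had no UMI of Mki67 or Top2a, 240 had 1, 47 had 2, 20 had exactly 3, 37 had 4 to 9 and 148 had at least 10. The summed level of 52 other G2/M genes was 1276 CPM in cells with 0, 2382 CPM in the 47 cells just outside the threshold, 3615 CPM in the 20 cells just inside it and 15363 CPM in cells with at least 10. For 43 S phase genes the same groups stood at 615, 1277, 3157 and 4223 CPM. These levels describe the selection and support nothing beyond it.

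The other limits of the rule set aside more dividing cells than it kept. Of 544 kept cells with at least 3 division UMIs, 461 had a Ptprc UMI, and 213 of these fell out by the Kupffer limit alone, 21 by the endothelial limit alone and 22 by both. A further 23 cells met every other limit but had over 6000 detected genes, 3 of them in WT, 15 in YAPKO and 5 in DKO, with none in TAZKO. The upper gene limit therefore removed more dividing cells from YAPKO than from the other libraries.

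The genes of the rule describe the selection and are no check of it. Mki67 was detected in 196 of the 205 members and Top2a in 196, with a median of 24 UMIs for the pair and a range of 3 to 120. Ptprc had a median of 9 UMIs. The Kupffer genes of the rule had no UMI in the median member, and their sum was at most 58 UMIs in any member. Scrublet, a tool that scores how closely a cell resembles a mixture of 2 cells, called 26 of the 205 members doublets (12.7%), against 6.50% of kept cells, and the members kept for the results include them. Of those 26 cells, 5 were in WT, 12 in YAPKO, 8 in TAZKO and 1 in DKO, and DKO alone used the automatic threshold of the tool, which called fewer cells.

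Dividing immune cells were not of 1 kind: the members fell into 10 clusters, of which 7 could be named from markers, giving 6 lineages with 155 cells. T cell-like members were the most numerous at 66, followed by 30 type 1 dendritic cell-like, 20 type 2 dendritic cell-like, 19 B or plasma cell-like, 10 NK or ILC1-like (innate lymphocytes of the NK type) and 10 neutrophil lineage-like members. The remaining 50 cells formed 3 clusters in which genes of another cell type led or shared the lead, and these stay unnamed. A cluster drawn from the same cells is a description, and its genes were not tested.

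**Figure D2:**
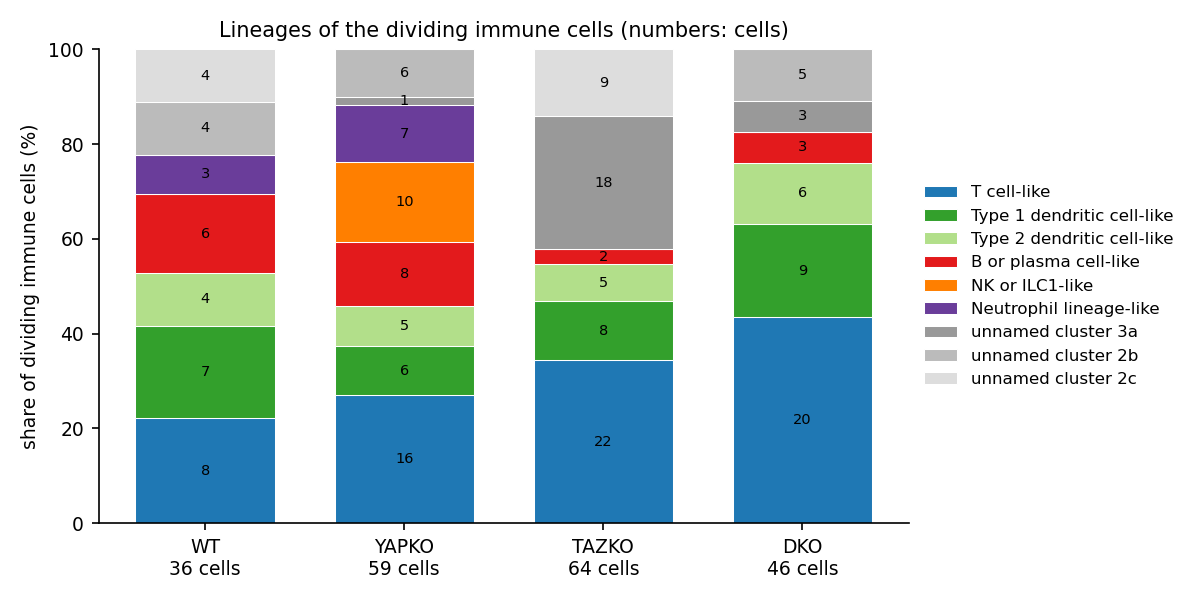
Share of the members of each library (y axis, percent) in each named lineage and in the 3 unnamed clusters, with the number of cells printed in each block. T cell-like cells make up 22.2% of the members in WT and 43.5% in DKO, and the NK or ILC1-like cells all come from YAPKO in this clustering.

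**Figure D3:**
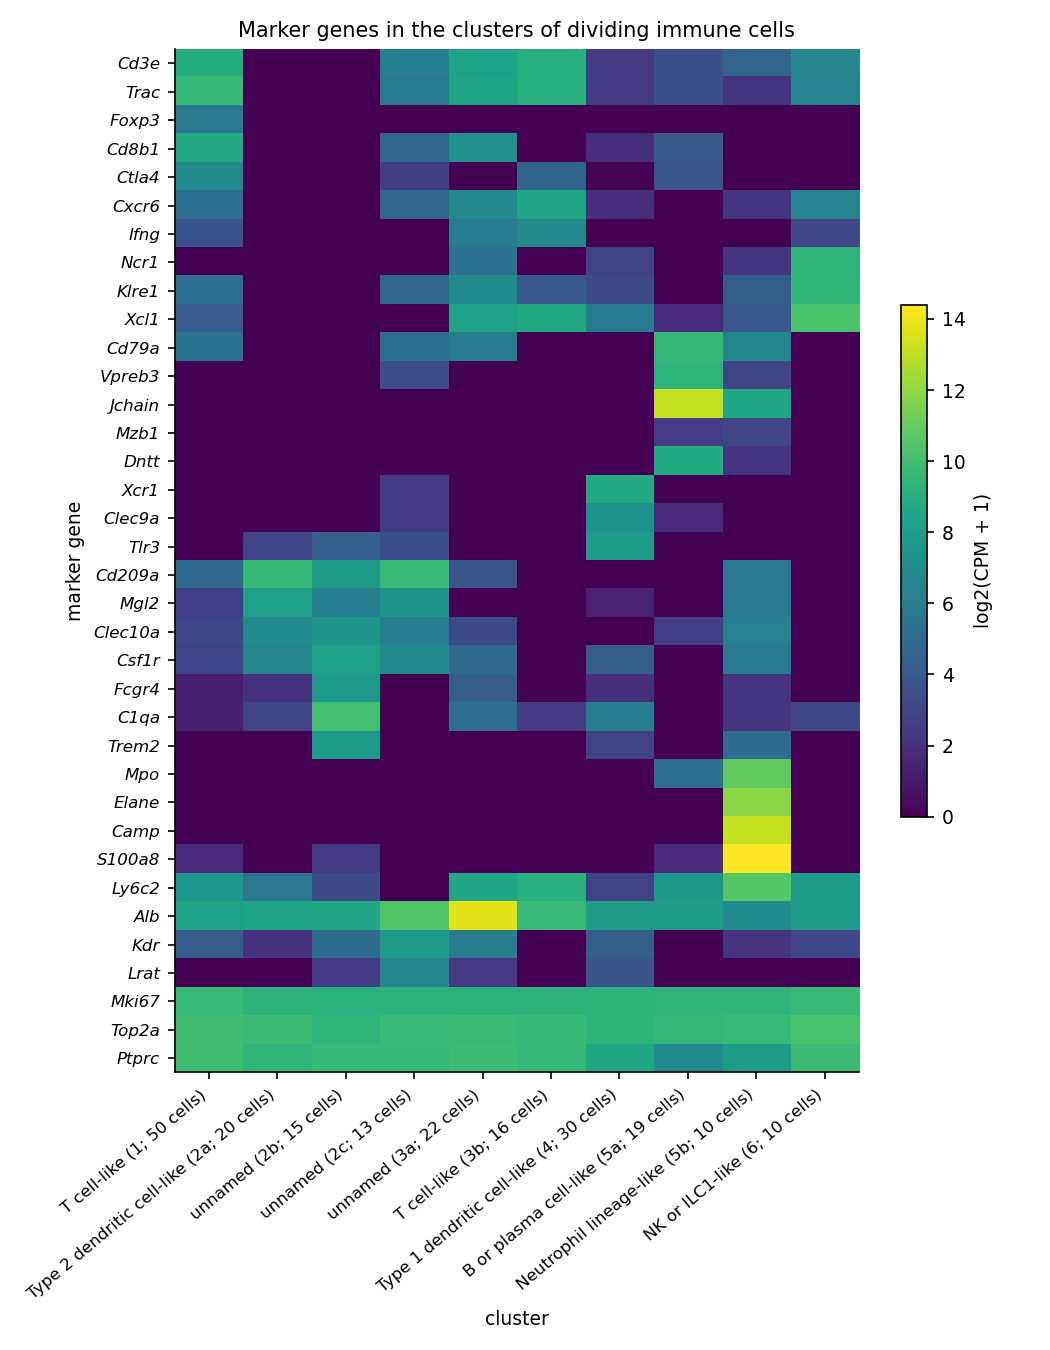
Level of marker genes (y axis) in the 10 clusters of members (x axis, with cluster number and number of cells) as the log2 of CPM plus 1, summed over libraries. Cd209a, at 808 CPM in the type 2 dendritic cell-like cluster 2a, also stands at 834 CPM in the unnamed cluster 2c, and Alb is highest in the unnamed cluster 3a.

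T cell-like members made up 22.2% of the members in WT (8 of 36, interval 10.1 to 39.2), 27.1% in YAPKO (16 of 59, 16.4 to 40.3), 34.4% in TAZKO (22 of 64, 22.9 to 47.3) and 43.5% in DKO (20 of 46, 28.9 to 58.9). All 4 intervals overlap, and the order depends on the clustering: at resolution 0.5 the T cell-like members numbered 0 in WT, 10 in YAPKO, 3 in TAZKO and 9 in DKO. Non-dividing T cell-like cells were also a larger part of the non-dividing gated cells in TAZKO (36.2%) and DKO (33.4%) than in WT (21.5%) and YAPKO (23.9%). Per 100 T cell-like cells of a library, members and non-dividing cells together, 2.89 were dividing in WT (1.26 to 5.61), 3.24 in YAPKO (1.86 to 5.21), 3.48 in TAZKO (2.19 to 5.22) and 2.83 in DKO (1.74 to 4.34). All 4 intervals overlap. The 240 gated cells with 1 division UMI and the 47 with 2 are in neither group, here and in the other lineages. With every gated cell that is not a member counted and clustered, the shares were 5% in WT (8 of 160, 2.18 to 9.61), 3.43% in YAPKO, 3.29% in TAZKO and 2.69% in DKO, so WT was then highest, with intervals that again overlap. In that clustering the WT non-members named T cell-like numbered 152, against 269 before, and those named NK or ILC1 230, against 103. With each cell thinned to 2000 UMIs the dividing shares of T cell-like cells became 0.735% in WT, 1.63% in YAPKO, 2.89% in TAZKO and 1.62% in DKO.

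T cell receptor complex RNA was also found outside the T cell-like clusters. Members with at least 3 UMIs of the T cell receptor complex genes numbered 10 of 36 in WT, 27 of 59 in YAPKO, 42 of 64 in TAZKO and 24 of 46 in DKO. In YAPKO the added cells include the 10 NK or ILC1-like members, and in TAZKO they include 18 cells of an unnamed cluster described below. This counts cells with receptor complex RNA and not T cells, since 9 of the 10 NK or ILC1-like members had no Cd3e UMI. By it TAZKO, at 65.6%, and not DKO, at 52.2%, has the largest share.

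The T cell-like members came as 2 clusters. The larger, with 50 cells, was led by Foxp3, the master factor of regulatory T cells (54 CPM in the cluster, 0 in the other 155 members), with Tnfrsf4, a costimulatory receptor (OX40), at 143 CPM, the inhibitory receptor Ctla4 at 113 CPM, Ikzf2 (the regulatory T cell factor Helios) at 269 CPM, and Cd8b1, a chain of the CD8 coreceptor, at 442 CPM against 18.7 CPM in the other members. Klrg1, a receptor of effector lymphocytes, stood at 79.4 CPM in 9 of the 50 cells. Regulatory, CD8 and effector genes thus led the same cluster, and of the 13 cells with a Foxp3 UMI 2 also had a CD8 gene UMI, 1 of them with Cd4 too. The smaller cluster, with 16 cells, was led by Ccl1, Art2a, Ly6c1, Cxcr6, Ifit1 and Ifng. Cxcr6, the chemokine receptor of liver-resident T cells, was found in 13 of its 16 cells at 355 CPM against 22.8 CPM elsewhere, and Ifng, the type II interferon, in 7 at 107 CPM. Ccl1, in contrast, came from 2 cells, and Ifit1 from 1.

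The coreceptors divide these T cells evenly. Of the 66 cells, 22 had a UMI of CD8 genes only (33.3%, interval 22.2 to 46.0), 22 of Cd4 only, 3 of both and 19 of neither. Among non-dividing T cell-like cells, which hold fewer UMIs, 23.7% had CD8 only, 18.5% Cd4 only and 56.5% neither. In WT the split was 4 with CD8 only and 1 with Cd4 only, in YAPKO 5 and 4, in TAZKO 6 and 10, and in DKO 7 and 7. In non-dividing B or plasma cell-like cells, which should lack these genes and hold fewer UMIs, Cd4 was found in 0.583%, Cd8a in 0.0729% and Cd8b1 in 0.219%. Cells with CD8 genes only were seen in all 4 libraries, and so were cells with Cd4 only, though in WT this was a single cell.

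Foxp3 marked a sizeable part of the dividing T cells. It was detected in 13 of 66 members (19.7%, 10.9 to 31.3) and in 59 of 2044 non-dividing T cell-like cells (2.89%). Thinned to 2000 UMIs the shares were 13.6% of 66 (6.43 to 24.3) and 1.40% of 1999 (0.933 to 2.02), so the gap holds at equal depth. In non-dividing B or plasma cell-like cells, which should lack the gene, Foxp3 was found in 1 of 1372 cells (0.0729%). The 13 cells were unevenly spread, with 0 of 8 in WT, 5 of 16 in YAPKO, 1 of 22 in TAZKO and 7 of 20 in DKO. Non-dividing T cell-like cells were uneven as well. Among those with neither coreceptor, Foxp3 was in 3 of 150 in WT, 10 of 272 in YAPKO, 5 of 358 in TAZKO and 16 of 374 in DKO. Among those with Cd4 only, it was in 2 of 37, 3 of 76, 2 of 132 and 11 of 134, so DKO was highest and TAZKO lowest in each class. Helios followed the same line, with Ikzf2 in 24.2% of thinned members against 11.3% of thinned non-dividing cells. Ctla4 was in 10.6% against 3.80%, with overlapping intervals. The median depth was 13745.5 UMIs in the larger and 11085 in the smaller T cell-like cluster of members, and 15055 in all members. It was 3836.5 in the non-dividing T cell-like cells and 2803.5 in the non-dividing B or plasma cell-like cells.

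The summed level of 7 genes of naive or circulating T cells was 834 CPM in the members and 2079 CPM in the non-dividing T cell-like cells, and 2 of the 7 were at least 2-fold lower, where 11.9% of 11497 measured genes were. At equal depth Il7r, the receptor for the survival cytokine IL-7, was found in 24.2% of members and 56.5% of non-dividing cells, and Lef1, a factor of naive T cells, in 13.6% and 35.7%. The residence gene Cxcr6 was also rarer, in 24.2% of members against 38.0%. Of 8 measured cytotoxic genes 2 were at least 2-fold higher, where 12.0% of all measured genes were, and 1 lower, and Gzmb (granzyme B) was found in 19.7% of thinned members and 13% of thinned non-dividing cells, with overlapping intervals.

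Type 1 dendritic cells, which take up dead cells and present their antigens to CD8 T cells, had the highest dividing share of the 6 named lineages in each library. The 30 members numbered 7 in WT, 6 in YAPKO, 8 in TAZKO and 9 in DKO. Set against the type 1 dendritic cell-like cells of their library, dividing or not, 19.4% were dividing in WT (7 of 36, 8.19 to 36.0), 11.3% in YAPKO (6 of 53, 4.27 to 23.0), 25.8% in TAZKO (8 of 31, 11.9 to 44.6) and 16.1% in DKO (9 of 56, 7.62 to 28.3). The libraries overlap, and over all of them the share was 17.0%, against 3.13% in T cell-like cells. These cells are deep, with a median of 21598.5 UMIs in the members and 13758.5 in the non-dividing cells, which raises the chance of 3 UMIs. Thinned to 2000 UMIs the share fell to 7.39% (3.99 to 12.3) against 1.89% (1.35 to 2.57) in T cell-like cells, so the order against T cells held at equal depth, with 11.1% in WT, 5.66% in YAPKO, 9.68% in TAZKO and 5.36% in DKO. The thinned T cell-like shares were 0.735%, 1.63%, 2.89% and 1.62% in the same libraries, and the intervals of the 2 lineages overlap in YAPKO, TAZKO and DKO. Type 2 dendritic cell-like cells stood at 2.94% thinned (1.48 to 5.20), an interval that overlaps that of type 1, and the intervals of the 2 types also overlap in each library.

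Marker genes of the type were found in most of these cells and in few other members. Xcr1, the chemokine receptor that defines the type, was found in 27 of the 30 cells at 415 CPM and in 1 of the other 175 members. Clec9a, the receptor for actin of dead cells, was in 28 of 30 and in 2 others. Tlr3, the sensor of double-stranded RNA, was in 30 of 30 and in 7 others. By genes rather than clusters, Xcr1 was seen in 7 members of WT, 6 of YAPKO, 7 of TAZKO and 8 of DKO, so each library held such dividing cells. Alox15 and Saa3, also among the leading genes, came from 1 cell each. The hepatic stellate cell list was raised too, at 463 CPM against 158 CPM in the other members, with 7 of 9 markers detected. Of these 30 cells, 5 were called doublets, and clustering without called doublets left 25 of them together in a cluster that no longer met the naming rule. Their MHC class II genes, which present antigen to CD4 T cells, summed to 39257 CPM against 54635 CPM in the non-dividing cells, with 0 of 7 past 2-fold in either direction, where 11.0% of 8065 genes were at least 2-fold higher and 3.56% lower.

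Type 2 dendritic cells, which prime CD4 T cells, gave 20 members, with 4 in WT, 5 in YAPKO, 5 in TAZKO and 6 in DKO. Their dividing share was 8.33% in WT (4 of 48, 2.32 to 19.98), 4.20% in YAPKO (5 of 119, 1.38 to 9.53), 7.69% in TAZKO (5 of 65, 2.54 to 17.0) and 3.90% in DKO (6 of 154, 1.44 to 8.29). All of these intervals overlap. The lectin gene Cd209a was found in 19 of the 20 cells at 808 CPM, and Mgl2, another lectin of these cells, in 8 at 282 CPM. Other leading genes were H2-DMb2, a chaperone chain of MHC class II loading, in 17 cells, Cd300a, an inhibitory receptor, in 16, Klra17 in 14, Skint3 in 12 and the epithelial gene Epcam in 9. The list of biliary epithelial cells had a larger ratio to the other members than the type 2 dendritic cell list, 2.31 against 1.96 on the log2 scale, from 2 detected markers, fewer than the 3 the naming asked for. MHC class II genes stood level with those of the non-dividing cells, at 55719 against 58049 CPM, while 5 of 10 interferon-stimulated genes were at least 2-fold lower, where 8.57% of 9163 genes were, and none was higher, where 11.3% were. The name rests on few leading genes: with at least 5 division UMIs required, 18 of these cells fell in a cluster named for another lineage, and with library-splitting genes left out all 20 stayed together without a name.

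B or plasma cell-like members numbered 6 in WT, 8 in YAPKO, 2 in TAZKO and 3 in DKO. They were 1.92% of their lineage in WT (0.709 to 4.14), 2.35% in YAPKO (1.02 to 4.58), 0.402% in TAZKO (2 of 498, 0.0487 to 1.44) and 1.24% in DKO (0.257 to 3.59). TAZKO held the most non-dividing cells of the lineage, 496, and the lowest dividing share, though its interval overlaps those of all 3 other libraries. Assigned cell by cell from markers, TAZKO held the most members of the lineage, 7 against 6 in WT, 6 in YAPKO and 2 in DKO, and the cluster lost its name with cell cycle genes kept in, with doublets left out or with clusters not split. The B cell receptor gene Cd79a was detected in 16 of the 19 cells, and counted over all members it was seen in 6 of WT, 7 of YAPKO, 8 of TAZKO and 2 of DKO, so 6 TAZKO cells with a Cd79a UMI sit in other clusters.

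These 19 cells carry markers of several kinds. Vpreb3, a chaperone of the immature receptor, was found in 12 of them, 6 in WT, 4 in YAPKO, 1 in TAZKO and 1 in DKO. Dntt, the polymerase that adds bases at receptor gene joints in precursors, was found in 4, 2 in WT and 2 in YAPKO. Both YAPKO cells also held UMIs of the progenitor genes Mpo, Cd34 and Kit and none of Vpreb3, and 1 of them held Cd79a. Both WT cells held Cd79a and Vpreb3 and no Mpo, and 1 of them held Cd34 and Kit. Jchain, which joins secreted antibodies, was found in 5 cells, 1 in WT, 2 in YAPKO and 2 in DKO, with up to 1217 UMIs in a cell. Of these 5 cells 4 were called doublets, so whether antibody-secreting cells divide cannot be told from them, while none of the 4 Dntt cells was called. Immunoglobulin genes summed to 146775 CPM against 17047 CPM in the non-dividing cells, with 4 of 8 at least 2-fold higher and 3 lower, where 15.3% of 10120 genes were higher and 21.8% lower. Ighg2b, the constant region of IgG2b, had 12028 UMIs in 4 cells, 53.0% of them in 1 cell, so these sums rest on few cells. All 7 MHC class II genes were at least 2-fold lower, at 2322 against 24059 CPM. Of the leading genes, Car1 came from 1 DKO cell with 235 UMIs, and 4 immunoglobulin segments came from 1 cell each. That DKO cell held no UMI of Cd79a, Ebf1, Igkc or Jchain, though it is counted in the DKO share. The erythroid list was raised in the cluster, at 407 CPM against 64.0 CPM in the other members, with 5 of 10 markers detected. Assigned cell by cell from markers, 15 of the 19 cells were B or plasma cells, 2 progenitors, 1 erythroid and 1 a plasmacytoid dendritic cell.

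In this clustering the NK or ILC1-like members all came from YAPKO, and other ways to assign cells placed some elsewhere. There were 10 of them among 59 members (16.9%, 8.44 to 29.0), and none among 36 members in WT, 64 in TAZKO and 46 in DKO. With 3 counts as the limit for 0, as in all such limits here, this allows shares of up to 8.33%, 4.69% and 6.52%. The exact intervals reach higher, to 9.74%, 5.60% and 7.71%. A cluster from 1 library may be that library and not a type. Within the lineage 4.57% were dividing in YAPKO (10 of 219, 2.21 to 8.24), and the counts of 0 among 103 cells in WT, 97 in TAZKO and 100 in DKO allow up to 2.91%, 3.09% and 3%. YAPKO was also the library with the most non-dividing cells of this lineage, 209, or 10.5% of its non-dividing gated cells against 8.21% in WT, 5.75% in TAZKO and 4.86% in DKO. With every gated cell that is not a member clustered, the lineage held 230 such cells in WT, 270 in YAPKO, 102 in TAZKO and 113 in DKO. WT then had a larger share of its gated cells in the lineage than YAPKO. Its limit for dividing cells was then 1.30%, and the YAPKO share 3.57% (1.73 to 6.47). By gene, Ncr1, the natural cytotoxicity receptor NKp46, was seen in 10 YAPKO members, 2 TAZKO members, 1 DKO member and 0 WT members, so 3 members outside YAPKO carry this marker. Assigned cell by cell from markers, NK or ILC1 cells numbered 1 in WT, 6 in YAPKO, 12 in TAZKO and 1 in DKO, so TAZKO then held the most, and with cell cycle genes kept in the clustering they numbered 4, 12, 1 and 3. In the cell-by-cell assignment, 5 of the 10 cells of this cluster were NK or ILC1 and 5 were erythroid.

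Within the cluster Ncr1 was found in 9 of 10 cells at 650 CPM and Klre1, an inhibitory lectin-like receptor, in 10 of 10 at 672 CPM. The erythroid list was raised as well, at 621 CPM against 80.9 CPM in the other members, from 2 detected markers. Klra4, a receptor of the Ly49 family, was in 6 and Eomes, the factor of circulating NK cells, in 7. All 10 cells also held at least 3 T cell receptor complex UMIs, with the beta chain gene Trbc1 in 9, Cd3g and Trdc in 4 each, and Cd3e and the alpha chain gene Trac in 1 each. Cytotoxic genes were lower than in the non-dividing cells of all libraries, 209 of 509 of which are from YAPKO, with 6 of 8 at least 2-fold lower and 1 higher, where 12.2% of 8046 genes were lower and 13.3% higher, and the list summed to 11670 against 27407 CPM. Against the non-dividing cells of YAPKO alone the summed list was lower as well.

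The neutrophil lineage-like members came from WT and YAPKO. They numbered 3 in WT, 7 in YAPKO and none in TAZKO and DKO, or 0.980% of the lineage in WT (3 of 306, 0.203 to 2.84) and 1.86% in YAPKO (7 of 376, 0.752 to 3.80). The counts of 0 among 40 cells in TAZKO and 164 in DKO allow up to 7.50% and 1.83%, so TAZKO held too few neutrophils to show a difference. Non-dividing neutrophils were likewise 24.2% of non-dividing gated cells in WT and 18.5% in YAPKO, against 2.37% in TAZKO and 7.97% in DKO. By gene, Prtn3, the granule protease proteinase 3, was found in 3 members of WT, 6 of YAPKO and none of the other libraries.

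These cells carry granule genes beside genes shared with monocytes. Of the early granule genes, Prtn3 was found in 7 of 10 cells, Ctsg (cathepsin G) in 6, Mpo (myeloperoxidase) in 6 and Elane (neutrophil elastase) in 5. The later granule genes Camp and Ngp, which encode antimicrobial proteins, were found in 2 YAPKO cells only, with up to 1348 UMIs of Camp in a cell. Of these 2 cells 1, with 1141 Camp UMIs, was called a doublet and held no UMI of Prtn3, Ctsg, Mpo or Elane. The calcium-binding alarmins S100a8 and S100a9 were found in 4 and 5 cells, all of YAPKO, and not only beside Camp and Ngp. In 1 YAPKO cell without Camp and Ngp they had 713 and 225 UMIs, beside 148 UMIs of Prtn3. Ly6c2, Irf8 and F13a1, genes of monocytes or their precursors, were as widespread, in 9, 8 and 6 cells, and the monocyte list stood at 6734 CPM against 1076 CPM in the other members. Assigned cell by cell from markers, 5 of the 10 cells were neutrophil lineage, 2 monocyte and 3 other types. The cluster is mixed, and 1 WT cell held 8 UMIs of Siglech, a plasmacytoid dendritic cell gene, and 1 YAPKO cell held 27 UMIs of Cd79a. Neither of them held a UMI of Prtn3, Ctsg, Mpo, Elane, Camp, Ngp, S100a8 or S100a9, though both are counted in the shares of the lineage. All 26 measured S phase genes were at least 2-fold above the non-dividing neutrophils, where 35.1% of 6963 genes were, and 9 of 12 immediate early genes were at least 2-fold below, where 26.8% were, at 867 against 8005 CPM.

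**Figure D4:**
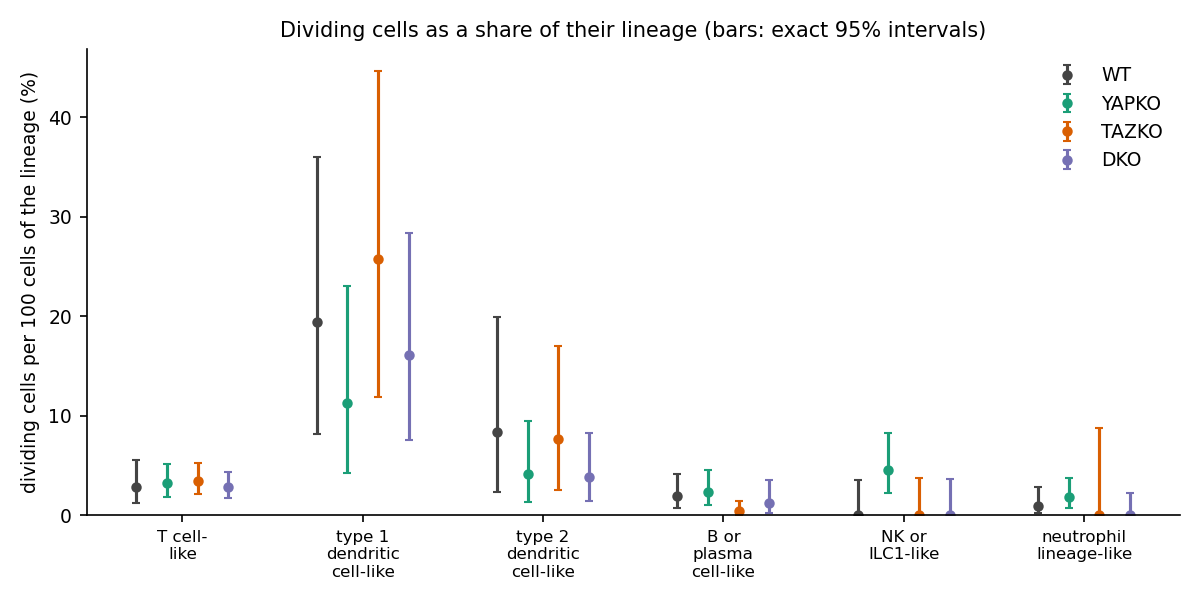
Dividing cells per 100 cells of each named lineage (y axis, percent) in each library, with exact 95% intervals as bars. The type 1 dendritic cell-like share lies between 11.3% and 25.8%, above the other named lineages in each library.

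The 3 unnamed clusters hold 50 cells. The largest, numbered 3a, had 22 cells, 18 of them from TAZKO, 3 from DKO and 1 from YAPKO, so it may be that library and not a type. Hepatocyte genes led it, with Hpx, the plasma carrier of heme, at 2153 CPM, of which 62.6% came from 1 cell. The hepatocyte list stood at 36030 CPM in the cluster, but at 3700 CPM, from 3042 UMIs, over all 64 TAZKO members. Most of the hepatocyte RNA of the cluster thus lies in its DKO and YAPKO cells. Yet 21 of the 22 cells had a T cell receptor complex UMI and 20 had at least 3, with a median of 32. All 18 TAZKO cells had at least 3, while the YAPKO cell had none and was called a doublet. Cd3e was found in 17 of the 22 cells and Trac in 17, and the NK or ILC1 genes Xcl1 in 12 and Klre1 in 7. Assigned cell by cell from markers, 8 were NK or ILC1, 6 T cells and 8 other types, so the cells stay unnamed, and what the hepatocyte RNA stands for was not tested.

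Cluster 2b had 15 cells, with 4 in WT, 6 in YAPKO, none in TAZKO and 5 in DKO. C1qb, C1qc and C1qa, the chains of complement C1q made by macrophages, stood at 2392, 1350 and 1103 CPM and were found in 11, 11 and 12 cells. Fcgr4, an activating Fc receptor, was in 10 cells, Lpl (lipoprotein lipase) in 9 and Trem2, the lipid receptor of lipid-loaded macrophages, in 4, with 73.5% of the Trem2 UMIs from 1 cell. Csf1r, the receptor for the macrophage growth factor, was in 13 cells and Ccr2, the receptor of recruited monocytes, in 10, while the Kupffer lectin gene Clec4f was in 4. All 10 genes of the macrophage list were detected, but more Kupffer than macrophage genes stood among the 10 leading genes, so the cluster stays unnamed. C1qa was part of the Kupffer limit of the rule, so the number of these cells depends on it. Cluster 2c had 13 cells, 4 in WT and 9 in TAZKO, and joined Cd209a, found in 11 of them, with genes of stellate and endothelial cells such as Lrat in 4 and Pecam1 in 7. Of its 13 cells, 7 were called doublets.

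Of the lineages named among non-dividing cells, 2 had no dividing cluster. Plasmacytoid dendritic cells, the main makers of type I interferon, numbered 652 of 6996 non-dividing gated cells, yet their marker Siglech was found in 6 of 205 members (1 in WT, 1 in YAPKO, 2 in TAZKO and 2 in DKO) against 10.5% of the non-dividing gated cells. With no dividing cluster, no share was computed for them, though assigned cell by cell from markers 9 members were of this type, 2 in WT, 4 in YAPKO, 1 in TAZKO and 2 in DKO. Mast cell or basophil-like cells numbered 37, a rare type here, and their protease gene Cpa3 had no UMI in any member. A cluster of 534 non-dividing cells led by the monocyte genes Vcan, Chil3 and F13a1 together with macrophage genes stayed unnamed, so no dividing share was given for it either.

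Most cell cycle genes were higher in the members of each named lineage. In T cell-like members 42 of 43 S phase genes and 51 of 52 measured G2/M genes were at least 2-fold above the non-dividing cells of the lineage, where 12.0% of 11497 genes were. In type 1 dendritic cell-like members these counts were 34 of 38 and 45 of 47 (11.0% of all genes), in type 2 dendritic cell-like members 29 of 32 and 46 of 46 (11.3%), in B or plasma cell-like members 31 of 36 and 43 of 45 (15.3%), in NK or ILC1-like members 27 of 29 and 35 of 37 (13.3%), and in neutrophil lineage-like members 26 of 26 and 33 of 36 (35.1%). Since the cells were selected on 2 G2/M genes, this is a description of the selection. The ratio of G2/M to S phase UMIs ranged from 2.97 in NK or ILC1-like to 4.70 in type 2 dendritic cell-like members. Hmgb2, a chromatin protein that rises before mitosis, was the most abundant G2/M gene in all 6 lineages, and Pcna was the most abundant S phase gene in T cell-like and in both dendritic cell-like groups.

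The balance of the 2 phases in T cell-like members rests on few cells. The ratio of G2/M to S phase UMIs, with Mki67 and Top2a left out, was 1.90 in WT, 2.24 in YAPKO, 4.12 in TAZKO and 4.06 in DKO. In WT 604 of the 1245 G2/M UMIs came from 1 cell, and without it the ratio was 1.08. The 18 TAZKO cells of the unnamed cluster 3a, which hold receptor complex RNA and are not counted here, had a ratio of 2.25, and 5 of the 18 had more S phase than G2/M UMIs. Among T cell-like members cells with more S phase than G2/M UMIs numbered 5 of 8 in WT, 5 of 16 in YAPKO, 2 of 22 in TAZKO and 1 of 20 in DKO. Cells with more S phase RNA thus made up a larger part of the T cell-like members in WT and YAPKO, and the same pairs of libraries part in Rps3a1 and Rps3a3. In type 1 dendritic cell-like members the ratio took another order, at 3.40, 4.92, 2.66 and 3.15, and with 1 cell left out it ranged from 3.37 to 7.25 in YAPKO. The WT T cell-like members had a median of 4 division UMIs, near the edge of the rule, against medians of 15.5 in YAPKO, 29 in TAZKO and 27.5 in DKO.

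**Figure D5:**
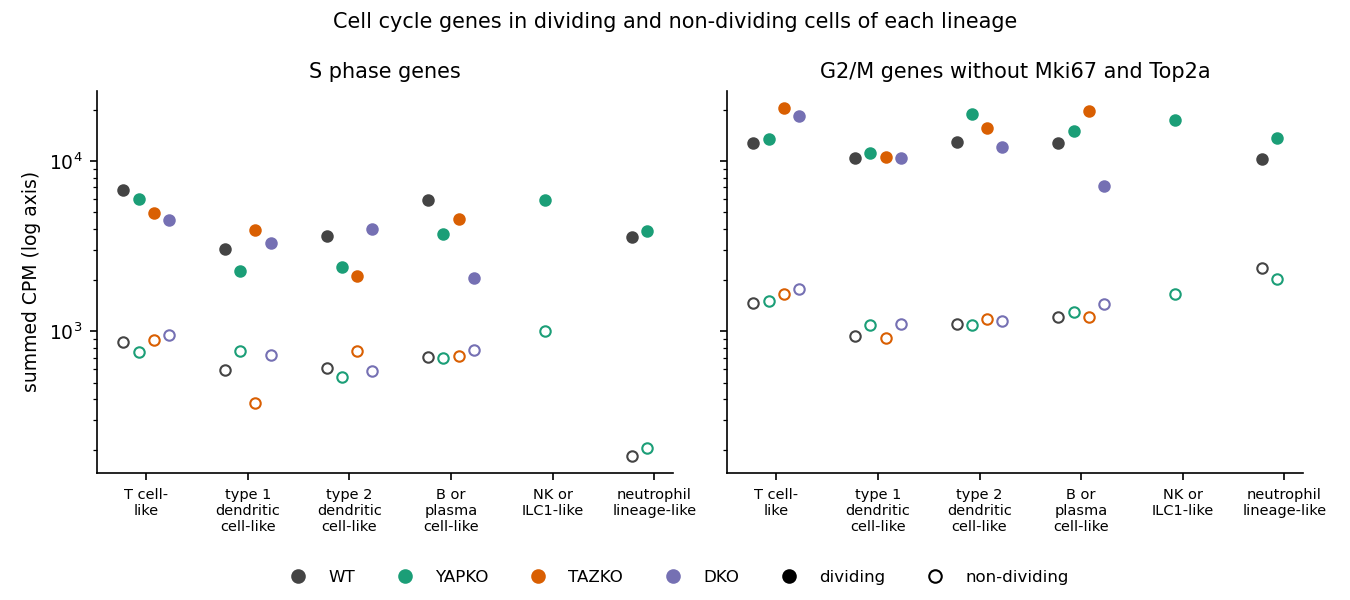
Summed CPM (log axis) of S phase genes (left) and of G2/M genes without Mki67 and Top2a (right) in dividing (filled) and non-dividing cells (open) of each named lineage and library. In T cell-like cells S phase genes stand at 6729 CPM in WT and 4514 CPM in DKO, and G2/M genes at 12790 and 18338 CPM.

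The G2/M genes that mark these cells share short letters in their promoters, which the selection did not use. The windows run from 250 bases before to 50 bases after the annotated start, taken from RefSeq on build GRCm38.p6, and 47 of 54 G2/M genes matched with 52 windows. TTTGAA or TTCGAA, the letters of the cell cycle homology region through which late cell cycle genes are held down in resting cells, was found on either strand in 38 of 52 windows (73.1%, 59.0 to 84.4), against 19.2% of all 32851 windows. CCAAT, the letters bound by the factor NF-Y, was in 39 of 52 (75%) against 37.4%. Both together were in 31 of 52 (59.6%, 45.1 to 73.0) against 7.52%. TTTCGCGC or TTTGGCGC, letters of an E2F site, was in 2 of 52 (3.85%) against 0.813%. For S phase genes 31 of 43 matched, under the 80% needed, so their shares are void. A match is a description and says nothing of binding.

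The windows below show these letters for the genes of the rule, for the most abundant G2/M gene and, for contrast, for Mcm6, a subunit of the replicative helicase that was chosen after its letters were seen. Capitals mark any of the letters above on either strand, so that ATTGG is CCAAT, and TTCAAA is TTTGAA, read on the other strand, and overlapping matches run together. Mki67 lies at chr7:135716330-135716629 on the minus strand, Top2a at chr11:99024140-99024439 on the minus strand, Hmgb2 at chr8:57511593-57511892 on the plus strand and Mcm6 at chr1:128359656-128359955 on the minus strand, all on GRCm38.p6. The Top2a window holds 4 cell cycle homology matches and 6 CCAAT matches, the Mki67 window 2 and 3, and the Hmgb2 window 2 and 4, all without an E2F match, while Mcm6 holds 3 E2F matches, 2 CCAAT matches and no cell cycle homology match.
Mki67: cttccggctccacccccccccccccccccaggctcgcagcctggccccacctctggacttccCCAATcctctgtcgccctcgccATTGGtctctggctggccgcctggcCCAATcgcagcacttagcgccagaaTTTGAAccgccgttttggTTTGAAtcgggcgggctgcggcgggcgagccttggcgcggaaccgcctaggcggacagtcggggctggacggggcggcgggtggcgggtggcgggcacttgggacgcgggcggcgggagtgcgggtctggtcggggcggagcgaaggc
Top2a: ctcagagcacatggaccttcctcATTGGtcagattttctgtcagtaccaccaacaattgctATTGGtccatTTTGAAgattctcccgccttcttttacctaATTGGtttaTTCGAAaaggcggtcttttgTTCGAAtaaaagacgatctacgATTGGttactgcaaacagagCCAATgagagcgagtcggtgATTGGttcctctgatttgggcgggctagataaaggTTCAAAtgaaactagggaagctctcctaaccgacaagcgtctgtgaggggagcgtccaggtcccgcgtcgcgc
Hmgb2: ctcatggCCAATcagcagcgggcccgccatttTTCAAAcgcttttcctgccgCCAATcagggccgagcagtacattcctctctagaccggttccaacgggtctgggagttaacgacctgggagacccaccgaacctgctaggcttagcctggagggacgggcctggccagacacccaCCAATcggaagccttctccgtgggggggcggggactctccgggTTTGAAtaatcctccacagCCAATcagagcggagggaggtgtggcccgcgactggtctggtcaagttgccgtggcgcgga
Mcm6: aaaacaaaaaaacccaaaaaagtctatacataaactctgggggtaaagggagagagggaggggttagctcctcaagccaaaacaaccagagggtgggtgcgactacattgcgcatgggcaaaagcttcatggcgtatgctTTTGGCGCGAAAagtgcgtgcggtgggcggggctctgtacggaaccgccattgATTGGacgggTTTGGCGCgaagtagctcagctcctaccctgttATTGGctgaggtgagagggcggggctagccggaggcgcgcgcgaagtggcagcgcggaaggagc

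Between libraries, T cell-like members were compared gene by gene, with WT as the reference of all 3 comparisons, and these stand side by side only because they share it. The reference holds 8 cells with 97344 UMIs. Genes with at least 50 UMIs over the 2 libraries were called when their CPM ratio was at least 2 in either direction with 1 UMI added to each count. In YAPKO 65 of 1199 genes were higher (5.42%) and 36 lower (3.0%), in TAZKO 93 of 1237 higher (7.52%) and 58 lower (4.69%), and in DKO 60 of 1209 higher (4.96%) and 38 lower (3.14%). These are differences between 2 small sets of cells from 1 mouse each, with no test.

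Tnfrsf4, Icos, Ddx21, Capg and Ikzf2 had the largest ratios of YAPKO to WT in T cell-like members. Tnfrsf4 had 64 UMIs in 6 of 16 cells (227 CPM) and 0 in WT, at least 7.37-fold higher against the level of 3 UMIs in WT, though 75% of those UMIs came from 1 cell. Icos, a costimulatory receptor of activated T cells, had 61 UMIs in 11 cells (216 CPM) and 0 in WT, at least 7.02-fold higher. Icos stood at 141 CPM in TAZKO and 129 CPM in DKO, and at 67.8 CPM in the non-dividing WT cells, so WT members were the low group. Ikzf2 was at 30.8 CPM in WT, 248 in YAPKO, 32.7 in TAZKO and 445 in DKO, the same pair of libraries that holds 12 of the 13 Foxp3 cells. The RNA helicase gene Ddx21 was at 30.8 CPM in WT, from 3 UMIs, and 326 CPM in YAPKO, a log2 ratio of 3.40 (1.81 to 5.71), and Capg, an actin-capping protein gene, at 41.1 and 333 CPM.

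Several cytotoxic genes were highest in the 8 T cell-like members of WT. Over all members the cytotoxic list took another order, with WT lowest at 1752 CPM, against 1979 in YAPKO, 2557 in TAZKO and 1818 in DKO. The YAPKO value includes the 10 NK or ILC1-like members, which hold far more of this list, and the order without them was not tested. Ccl5, a chemokine of cytotoxic T cells, stood at 4099 CPM in WT, 486 in YAPKO, 1750 in TAZKO and 2197 in DKO, while the non-dividing T cell-like cells held 2121, 2350, 2064 and 4726 CPM. The WT value is from 5 of 8 cells. Of 4 measured cytotoxic genes 4 were lower than WT in YAPKO, 3 in TAZKO and 3 in DKO, where 3.0%, 4.69% and 3.14% of all tested genes were, with none higher, and Nkg7 and Gzmb were lower in all 3 comparisons. Klrd1 (CD94, an NK cell receptor chain) was at 380 CPM in WT, with 59.5% of the UMIs from 1 cell, and 72.0 CPM in TAZKO, and Cd8a was called lower in all 3. In the WT set 4 of 8 cells carried CD8 genes only (interval 15.7 to 84.3), which overlaps the shares of the other libraries, and the part of this mix in the calls was not tested.

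MHC class II genes were higher in DKO, in few cells. Cd74, the chaperone of MHC class II, stood at 10.3 CPM in WT, from 1 UMI, 131 in YAPKO, 317 in TAZKO, where 63.9% of the UMIs came from 1 cell, and 1155 in DKO, where 54.6% of 348 UMIs did. The log2 ratio of DKO to WT was 6.81 (4.33 to 12.12). H2-Eb1 had 140 UMIs in 2 DKO cells and 0 in WT, at least 15.1-fold higher, and H2-Aa had 161 UMIs in 4 DKO cells. All 4 measured MHC class II genes were called higher in DKO, where 4.96% of all tested genes were, and this call rests on few cells. The T cell-like set also holds markers of antigen-presenting cells: Cd209a had 22 UMIs in 1 cell, of DKO, and Cd79a had 36 UMIs in 2 cells, of TAZKO. Assigned cell by cell from markers, 46 of the 66 members were T cells and 6 were NK or ILC1. Of the rest, 5 were plasmacytoid dendritic cells, 4 type 2 dendritic cells, 2 B or plasma cells, 2 monocytes and 1 a macrophage. Whether the cells assigned to antigen-presenting types hold the MHC class II UMIs was not tested.

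Some G2/M genes were higher in TAZKO and DKO than in WT. With Mki67 and Top2a left out, since the rule used them, 7 of 33 measured G2/M genes were higher in TAZKO, where 7.52% of all tested genes were, 5 of 32 in DKO, where 4.96% were, and 1 of 26 in YAPKO, where 5.42% were, with none lower. The YAPKO gene is Ube2c, which encodes a ubiquitin-conjugating enzyme. In TAZKO H2ac4, a histone H2A gene expressed with DNA replication, was at 510 CPM against 30.8 CPM in WT, from 3 UMIs in 1 cell. No S phase gene was called higher in any of the 3 comparisons, with 1 of 19 lower in YAPKO, 0 of 16 in TAZKO and 2 of 17 in DKO, where 3.0%, 4.69% and 3.14% of all tested genes were lower.

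Other calls fall on ribosomal and hepatocyte genes, and library and genotype cannot be told apart in them. Rps3a3 was at least 90.2-fold higher in TAZKO and at least 108-fold higher in DKO than in WT, Rps3a1 was lower in both, and the pseudogene Rps15a-ps8 was at 10.3 CPM in WT, from 1 UMI, 324 in TAZKO and 743 in DKO. Gm8420 was at 863 CPM in WT, 1131 in YAPKO, 747 in DKO and 3.27 in TAZKO, from 1 UMI. In T cell-like members 5 of 6 measured hepatocyte genes were lower than WT in YAPKO, where 1 gene, Ass1, was higher, 4 of 7 in TAZKO and 6 of 7 in DKO, where 3.0%, 4.69% and 3.14% of all tested genes were lower. Over all members the hepatocyte list took another order, with WT lowest at 2731 CPM, against 4538 in YAPKO, 3700 in TAZKO and 4962 in DKO. The unnamed cluster 3a, with 0 cells from WT, held this list at 36030 CPM against 1685 CPM in the other members. The order without that cluster was not tested. Mup20, a major urinary protein gene of hepatocytes, was at 1716 CPM in the WT members, 145 in YAPKO, 78.5 in TAZKO and 246 in DKO, and at 4214, 668, 264 and 811 CPM in the non-dividing T cell-like cells of WT, YAPKO, TAZKO and DKO, so it was lower in the members than in the non-dividing cells of each library as well. Mup3, Ttr, Serpina1e and Serpina1c, other plasma protein or Mup genes, were called in the same direction. Without the hepatocyte genes and the library-splitting genes the counts were 63 higher and 31 lower in YAPKO, 90 and 52 in TAZKO, and 58 and 30 in DKO.

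Yap1 and Wwtr1, the gene of TAZ, were at the edge of detection in dividing immune cells. Yap1 had 5 UMIs in 5 of 205 members, in 2 cells of WT, 0 of YAPKO, 1 of TAZKO and 2 of DKO, or 2.87, 0, 1.22 and 2.71 CPM. Among non-dividing gated cells 1.57% had a Yap1 UMI. Wwtr1 was found in 8 of 205 members, 4 in WT, 0 in YAPKO, 1 in TAZKO and 3 in DKO, and 5 of the 8 cells, the 4 of WT and the 1 of TAZKO, lie in cluster 2c. Whether such UMIs come from RNA of other cells was not tested. The Wwtr1 UMIs numbered 6 in WT, 0 in YAPKO, 5 in TAZKO and 5 in DKO, and all 6 of WT lie in the 4 WT cells of that cluster. Over all members 14 Hippo pathway genes summed to 378 CPM against 414 CPM in non-dividing cells, with 0 of 13 measured genes at least 2-fold higher and 2 lower, where 9.97% of 16215 genes were higher and 15.5% lower, and the kinase gene Stk4 (MST1) and its partner Mob1a were the most abundant.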

How the data were processed

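Single-cell 3′ libraries were made from the livers of 4 mice, 1 per genotype, and the authors deposited 1 matrix of UMI counts per library, made per the labels with Cell Ranger 6.0.1 on mm10, while the matrix headers name version 4.0.0. The values are raw UMI counts over 55488 genes. Members and gene lists were chosen with earlier results of these data known.

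The members of all libraries were clustered together in scanpy 1.11.5 with leidenalg 0.10.2. Counts were log-normalized to 10000 UMIs, 1000 variable genes were taken with 345 cell cycle and cell cycle-correlated genes left out (correlation above 0.3), and 15 components, 15 neighbours and Leiden resolution 1 were used. A cluster of at least 16 cells was split where its sub-clusters led with different lineage lists. Clusters were named from 15 lineage lists when at least 3 markers of the leading list were detected with 3 UMIs each, no list of another liver cell type with at least 3 detected markers had a larger ratio (Kupffer and endothelial lists set aside), and no other list had more markers among the 10 leading genes. Non-dividing cells were gated immune cells without a Mki67 or Top2a UMI, clustered and named in the same way. Scrublet calls used the top 8% of scores where its automatic threshold called under 0.5%. Levels are UMIs summed per gene, group and library and scaled to CPM, with exact Poisson intervals for levels, conditional binomial intervals for ratios and Clopper-Pearson intervals for shares at 95%, and with 3 counts as the limit for 0. List genes counted as measured had at least 20 UMIs over members and non-dividing cells.

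Named genes were those of the rule, the 10 leading genes of each cluster among genes with at least 20 UMIs, examples from the lists, the 5 genes with the largest ratio in each direction per comparison, and Yap1 and Wwtr1. Icos in the other libraries, single markers per cell and Mcm6 were picked after values were seen. Python 3.11.15, numpy 2.4.6, scipy 1.17.1 and pandas 2.3.3 were used, and figures were drawn with matplotlib 3.10.9. Each genotype has 1 library, so no test and no p-value is given. The steps were tested on simulated data. Alternatives changed the thresholds, depth, clustering, doublets, scaling and denominators.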

Additional observations from a re-analysis of the deposited data

How the results depend on the processing

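No paired analysis was possible because each genotype has 1 library and the labels give all of them the same replicate number. Depth limits the small lineages: 10 cells or fewer per library stand behind each share of a named lineage outside T cells, and a dividing cell must hold 3 UMIs to be seen. Over the settings tried, shares of kept cells stayed within their intervals in 24 of 28 values, shares of gated immune cells in 23 of 32, lineage shares in 146 of 196, shares of a lineage in 42 of 48, and counts of genes past 2-fold within 1.5 times in 14 of 30. The causes of the changes were not tested, except that a higher or lower UMI minimum changes the number of genes tested. The settings for unsplit clusters, library-splitting genes, receptor UMIs and hepatocyte genes were chosen after seeing the data.

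With the limits of 500 and 6000 read as UMIs, which is closer to the paper's wording of transcripts, the share of kept cells was 0% in WT, 0.0611% in YAPKO, 0.0442% in TAZKO and 0% in DKO, and the share of gated immune cells 0% in WT, 0.145% in YAPKO, 0.351% in TAZKO and 0% in DKO, since 198 of the 205 members hold over 6000 UMIs. With at least 2 division UMIs the gated share in YAPKO was 3.55%. Thinned to 2000 UMIs it was 1.17% in WT, 1.82% in YAPKO, 2.49% in TAZKO and 1.13% in DKO. As a share of their lineage, thinned T cell-like members were 0.735% in WT, 1.63% in YAPKO and 1.62% in DKO, thinned type 1 dendritic cell-like members 9.68% in TAZKO and 5.36% in DKO, and thinned B or plasma cell-like members 0.660% in WT.

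Names of lineages depend on the clustering. At resolution 0.5 the T cell share was 0% in WT, 4.69% in TAZKO and 19.6% in DKO, with 26 of the 66 cells together in an unnamed cluster of 27. At resolution 2 it was 5.56% in WT. With cell cycle genes kept in, T cells were 5.56% in WT, NK or ILC1 11.1% in WT, B or plasma cells 0% in WT, 0% in YAPKO, 0% in TAZKO and 0% in DKO, and the neutrophil lineage 0% in WT and 0% in YAPKO. All 19 B or plasma cell-like and 9 of 10 neutrophil lineage-like members then shared an unnamed cluster of 28. Assigned cell by cell from markers, T cells were 15.3% in YAPKO, B or plasma cells 10.9% in TAZKO and NK or ILC1 18.8% in TAZKO. With doublets left out, type 1 dendritic cells were 0% in WT, 0% in YAPKO, 0% in TAZKO and 0% in DKO, type 2 dendritic cells 2.13% in YAPKO, B or plasma cells 0% in WT, 0% in YAPKO, 0% in TAZKO and 0% in DKO, and the neutrophil lineage 25.8% in WT and 23.4% in YAPKO, since 14 B or plasma cell-like members then lay in its cluster. With at least 5 division UMIs, T cells were 22.2% in TAZKO, type 2 dendritic cells 0% in WT, 0% in YAPKO, 0% in TAZKO and 0% in DKO, and the neutrophil lineage 11.1% in TAZKO and 15.4% in DKO, since 18 type 2 dendritic cell-like members then lay in its cluster. With clusters not split, T cells were 21.9% in TAZKO, type 2 dendritic cells 0% in WT, 0% in YAPKO, 0% in TAZKO and 0% in DKO, B or plasma cells 0% in WT, 0% in YAPKO, 0% in TAZKO and 0% in DKO, and the neutrophil lineage 25% in WT and 25.4% in YAPKO. With library-splitting genes left out, type 2 dendritic cells were 0% in WT, 0% in YAPKO, 0% in TAZKO and 0% in DKO. By at least 3 receptor UMIs, T cells were 45.8% in YAPKO and 65.6% in TAZKO.

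Genes past 2-fold in T cell-like members numbered, with at least 20 UMIs, 222 higher and 163 lower in YAPKO, 341 and 249 in TAZKO, and 266 and 180 in DKO. Over all members they numbered 125 and 137 in YAPKO, 302 and 223 in TAZKO, and 116 and 102 in DKO. In members with at least 3 receptor UMIs, 58 were lower in YAPKO, 191 higher and 96 lower in TAZKO, and 59 lower in DKO.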

Other observations

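The 3 D-type cyclins, which drive the entry into the cell cycle, were split by lineage, and in T cells and dendritic cells the leading one was not higher in dividing cells. Ccnd1 was the most abundant of the 3 in both dendritic cell-like groups, at 292 CPM in dividing and 306 CPM in non-dividing type 1 dendritic cell-like cells and at 438 and 598 CPM in type 2 dendritic cell-like cells, while T cell-like members held 14.2 CPM and NK or ILC1-like members had no Ccnd1 UMI. Ccnd2 was the most abundant in non-dividing T cell-like cells: it stood at 177 CPM in the T cell-like members and 518 CPM in the non-dividing cells, and was lower in the dividing cells of all 4 libraries, at 175 against 431 CPM in WT, 192 against 406 in YAPKO, 177 against 709 in TAZKO and 166 against 465 in DKO. Ccnd3 was present in the members of all 6 named lineages, from 165 CPM in type 1 dendritic cell-like to 307 CPM in neutrophil lineage-like members. Other lineages went the other way, with Ccnd2 at 166 against 80.3 CPM and Ccnd3 at 288 against 121 CPM in B or plasma cell-like cells, and Ccnd1 at 77.6 against 7.31 CPM in neutrophil lineage-like cells, from 3 of 10 members. The later cyclins behaved as markers of division, with Ccne1, which acts at the start of S phase, at 47.3 CPM in all members and 2.37 CPM in non-dividing cells, and Ccna2, which acts in S and G2, at 173 and 0.319 CPM.

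Lists of growth and interferon-stimulated genes differed in sum between the members and the non-dividing gated cells, whose lineages are mixed in other proportions. Npm1 and Ncl, nucleolar proteins of ribosome assembly, stood at 1157 and 634 CPM in the members against 665 and 330 CPM in non-dividing gated cells, and the list of 10 growth genes summed to 2811 against 1699 CPM, with 1 of 9 measured genes at least 2-fold higher, near the 9.97% of all 16215 genes that were. The list was above the non-dividing cells in each library, at 2506 against 1558 CPM in WT, 3415 against 1888 in YAPKO, 2445 against 1530 in TAZKO and 2567 against 1698 in DKO. Ldha, the enzyme that makes lactate, was at 767 CPM in T cell-like members against 322 CPM in non-dividing T cell-like cells. Interferon-stimulated genes summed to 830 CPM in WT members, 516 in YAPKO, 702 in TAZKO and 355 in DKO, against 1320, 1471, 1254 and 1578 CPM in non-dividing cells, with 5 of 10 at least 2-fold lower over all libraries, where 15.5% of all genes were. The most abundant of them, Bst2, is also on the marker list of plasmacytoid dendritic cells, which had no dividing cluster. Within lineages the gap was smaller in T cells, at 471 against 577 CPM for the list, and in B or plasma cell-like cells it ran the other way, at 384 against 225 CPM. In type 2 dendritic cell-like cells 5 of 10 genes of the list were at least 2-fold lower, where 8.57% of all genes were. Hspa1a, a heat shock gene, was at 425 CPM in WT members, 8.73 in YAPKO, 63.2 in TAZKO and 51.5 in DKO, and the non-dividing cells were also highest in WT, at 258, 10.3, 39.9 and 39.1 CPM.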
